A study of Mus musculus with 16 samples.

Results

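The response to transforming growth factor beta (TGFb) was followed in a mouse mammary tumour cell line, numbered 828, that is homozygous for the A342E point mutation of Pygo2 (AE/AE). The line came from a tumour of the MMTV-PyMT model on the FVB/N strain, so all cells carry the polyoma middle T transgene, which the mouse mammary tumour virus promoter drives mainly in mammary epithelium. Of the 16 libraries of the series, 4 bear on it: 2 from AE cells given 2 ng/ml TGFb for 4 days, with medium and TGFb renewed every 2nd day, and 2 from untreated AE cells kept for the same 4 days. They were selected by their labelled line, treatment and time. Line 631, wild type for Pygo2 (+/+, here WT) and carrying the same transgene, was cultured and treated in the same way (2 TGFb and 2 untreated libraries). The other 8 libraries hold both lines after 3 days with or without 100 ng/ml Wnt3a, and serve here only to estimate the spread. All cells grew in medium with fetal bovine serum. Each genotype is represented by 1 line, so a difference between genotypes and a difference between the lines cannot be told apart. The submitters call the libraries of a group biological duplicates and do not say whether they came from separate cultures, so the p-values reflect only how these libraries vary, which may be technical.

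TGFb binds a type II receptor that phosphorylates the type I receptor Tgfbr1, and the activated receptor phosphorylates Smad2 and Smad3, which enter the nucleus with Smad4 and act on target genes. In mammary epithelium it is known for arresting the cell cycle through CDK inhibitors, for inducing matrix genes, and for epithelial-mesenchymal transition (EMT), in which cells lose junctions and take on mesenchymal genes. Pygo2 is a nuclear partner of the Wnt effector beta-catenin. Its PHD finger, the domain that A342E alters, recognises histone H3 methylated at lysine residues.

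Poly(A) RNA was sequenced and reads were counted per gene. Library totals in the series ran from 20530538 to 26191846 counts, with 20876808 and 26191846 in the untreated AE libraries and 23895087 and 24105298 in the treated ones. Of 19665 genes in the table, 13172 passed the filter (a CPM, the count scaled to its library's total, of at least 1 in at least 2 of the 16 libraries). Levels below are CPM on totals adjusted by edgeR's TMM scaling factors, given for untreated replicates 1 and 2 and then TGFb replicates 1 and 2. Log2 fold changes are TGFb minus untreated ± SE (n = 2 libraries a group), and q is the p of edgeR's quasi-likelihood test adjusted over all 13172 genes. A gene passed, and is said to have risen or fallen, at q under 0.05. The model shares 1 estimate of the spread over all 16 libraries. The AE libraries were tighter than most: the SD of the log2 ratio between replicates was 0.18 for untreated and 0.14 for treated AE cells, 0.30 and 0.35 for the WT groups of the 4-day experiment, and up to 0.84 at 3 days. Counts of members are therefore also given from a fit on the 8 libraries of the 4-day experiment (the 4-day fit). In bulk RNA, fewer cells of a type and less RNA per cell cannot be told apart.

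The epithelial identity of the line was checked first. The 7 tested mammary epithelial markers, among them Epcam, Cdh1, Krt8 and Krt18, summed to 1570 and 1507 CPM untreated and 1609 and 1619 CPM with TGFb, and none passed. Their log2 fold changes ran from -0.50 to 3.07, and 1 passed as higher in the 4-day fit. Krt19 fell under the filter, with 1 to 2 counts in untreated and 8 to 15 in treated libraries. Ptprc, which defines leukocytes, Emcn of endothelium and Adipoq of adipocytes had 0 counts in all 4 AE libraries, which allows up to 3 counts in each. Other markers were detected. Lyz2 and Csf1r of immune cells summed to 1.36 and 1.09 CPM untreated and 3.99 and 3.76 CPM with TGFb. Fabp4 of adipocytes had 0.909 and 1.27 to 2.08 and 2.26 CPM, and Lep 16 and 9 to 1 and 2 counts. The 6 fibroblast markers tested summed to 265 and 254 CPM untreated and 454 and 490 CPM with TGFb. The part of such cells was not tested.

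TGFb raised 802 genes and lowered 569 in the AE line. Over all genes tested, 6.09% passed as higher and 4.32% as lower, and the median log2 fold change was -0.0042. In both treated libraries, every one of these 1371 genes lay on the same side of both untreated ones, but so did 5090 higher and 5081 lower genes in all, so this criterion alone does not single them out. Of the passing genes, 719 were at least 2-fold higher and 472 at least 2-fold lower, and 176 and 50 differed at least 8-fold in the respective direction. The larger folds were thus more often increases. At an unadjusted p under 0.05 there were 2913 genes. The 4-day fit passed 18.7% of 12900 genes as higher (2417) and 16.3% as lower (2100), and these held 787 of the 802 and 563 of the 569. Leaving out 1 AE library cut the 1371 to 459 (without TGFb replicate 1), 396 (without TGFb replicate 2), 352 (without untreated replicate 1) and 404 (without untreated replicate 2).

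**Figure D1:**
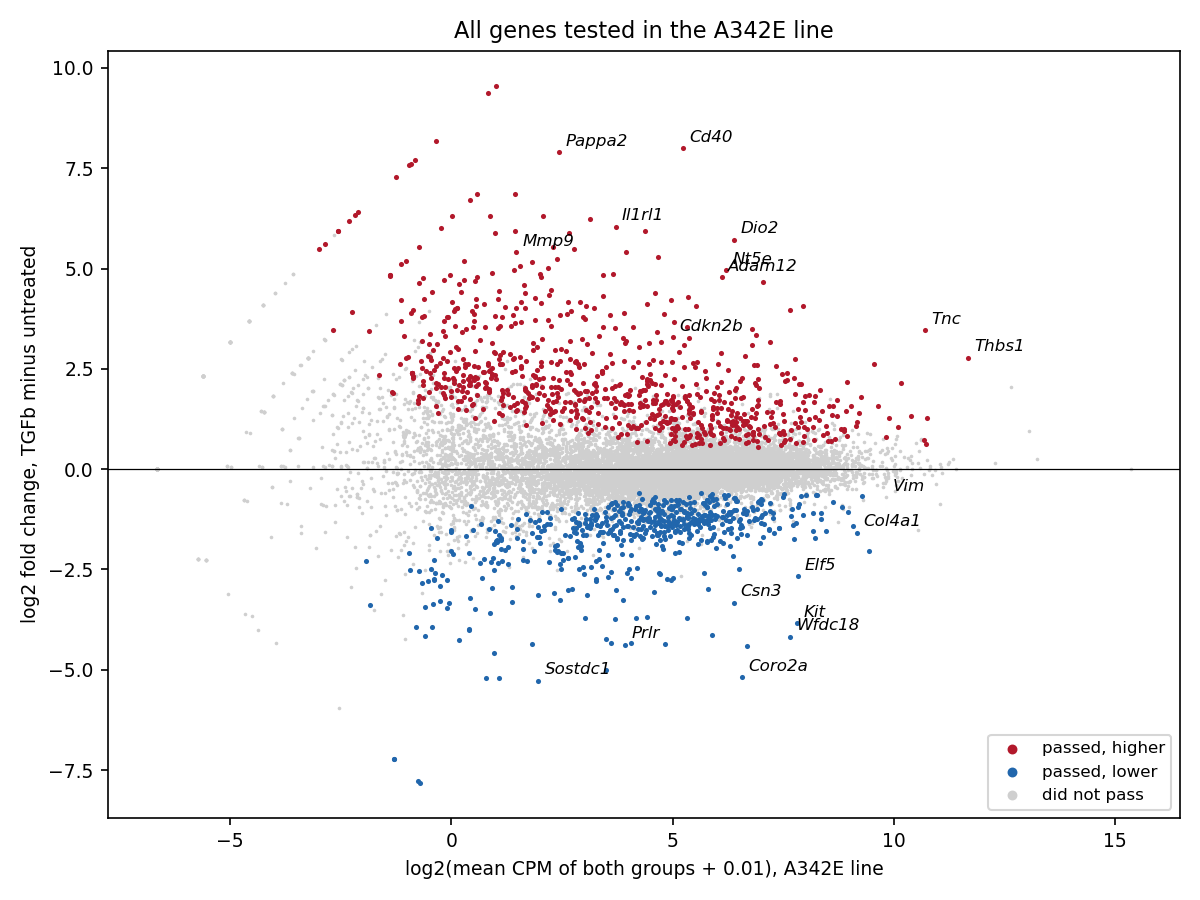
Each point is 1 of 13172 genes in the A342E line, by its mean CPM over both groups (log2, with 0.01 added) and its log2 fold change with TGFb. Red (802) and blue (569) genes passed as higher or lower; the largest increases are among genes of low mean level, such as Pappa2, and Tnc and Thbs1 are abundant genes that rose.

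The list-by-list plot of fold changes gives the main groups described below. Counts of list members stand beside 6.09% higher and 4.32% lower over all genes tested (4-day fit: 18.7% and 16.3%). Matrix, protease, mesenchymal and p53 target lists lie mostly to the right of 0, and the S phase and mitosis lists lie wholly to its left.

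**Figure D2:**
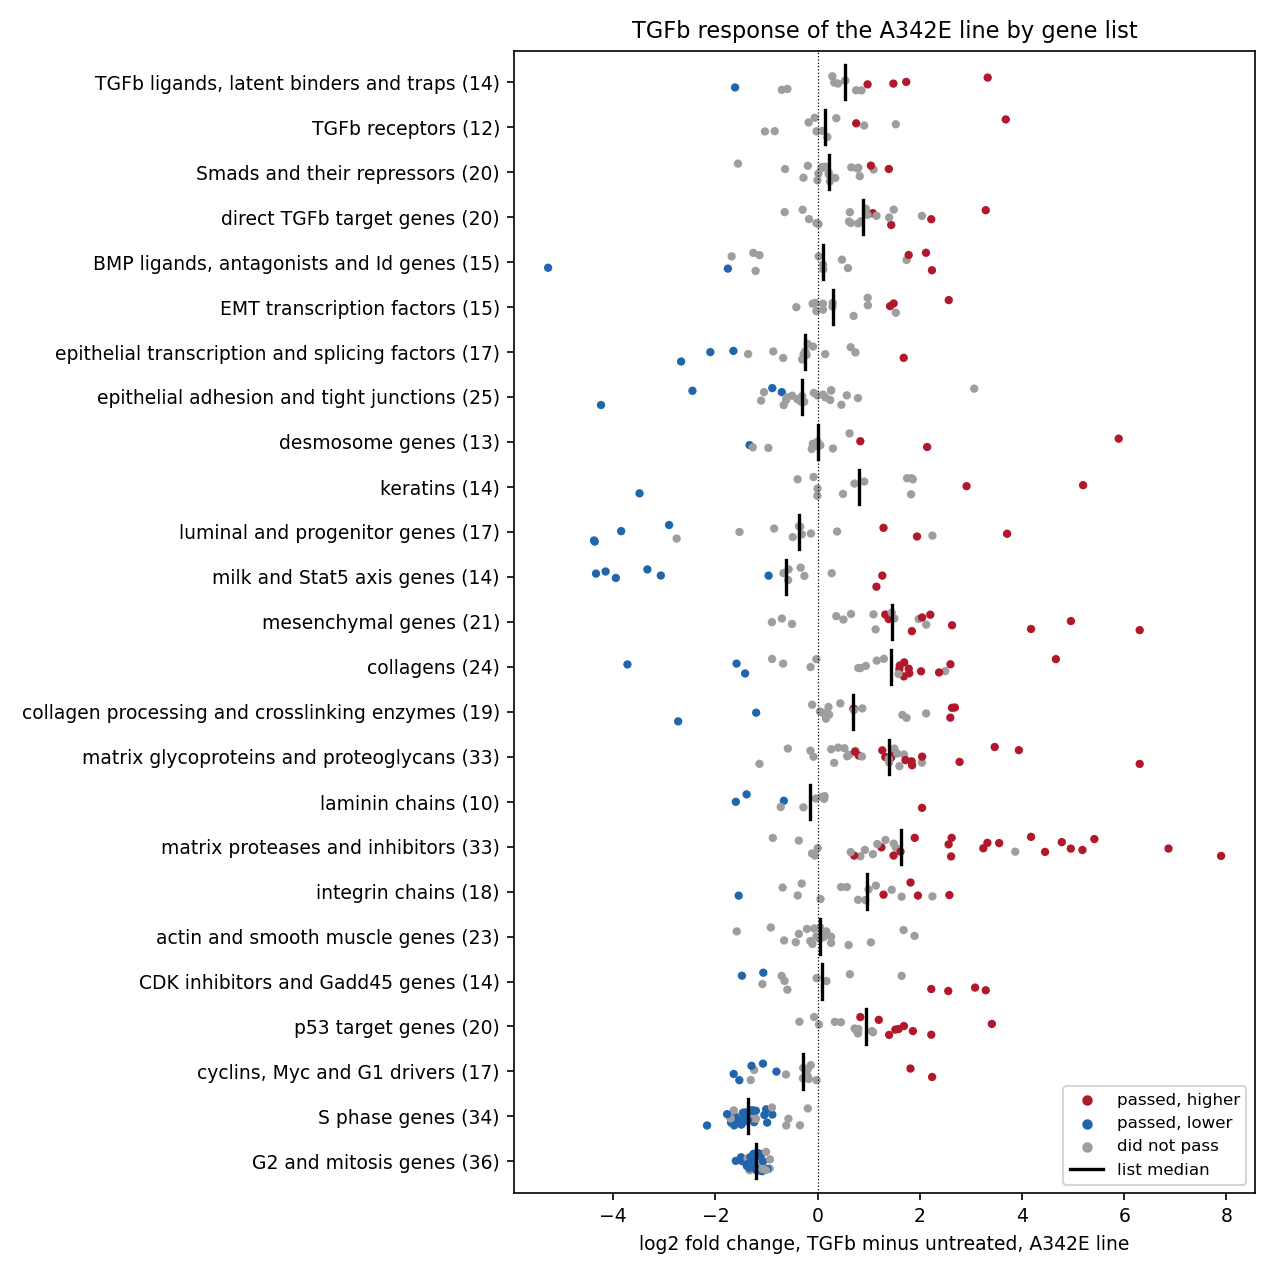
Log2 fold change with TGFb in the A342E line for every tested member of 25 gene lists (number tested in brackets), with the list's median as a black bar. Red and blue members passed as higher or lower and grey ones did not pass; all 34 S phase and all 36 G2 and mitosis members lie below 0.

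Among TGFb family ligands, latent binders and traps, 4 rose and 1 fell of 14 tested (4-day fit: 7 higher and 2 lower), with a median log2 fold change of 0.54. The one that fell was Tgfb2, a ligand of the pathway itself, from 134 and 149 to 45.8 and 46.8 CPM (log2 fold change -1.61 ± 0.20, q = 6.0e-04). The activin subunit Inhba rose from 2 and 1.64 to 18.3 and 18.2 CPM (log2 fold change 3.33 ± 0.80, q = 0.02). Its extracellular antagonist follistatin, Fst, rose from 10.6 and 11.2 to 35.6 and 37.1 CPM (log2 fold change 1.73 ± 0.32, q = 0.0048). The related Fstl3 rose from 4.18 and 3.2 to 9.97 and 10.7 CPM (log2 fold change 1.48 ± 0.37, q = 0.024). The ligand Gdf11 rose from 6.64 and 5.35 to 12.4 and 11.2 CPM (log2 fold change 0.98 ± 0.27, q = 0.038). An activin subunit and 2 of its traps thus rose beside a fall of Tgfb2. For Tgfb1 and Tgfb3, the other TGFb ligands, levels were 3.68 and 3.6 to 6.7 and 6.53 CPM (log2 fold change 0.86 ± 0.45, q = 0.30) and 946 and 824 to 1091 and 1072 CPM (log2 fold change 0.29 ± 0.26, q = 0.63).

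Of 12 receptors tested, 2 rose and 0 fell (4-day fit: 4 higher and 2 lower). The type I receptor Acvr1 moved from 67.1 and 68.2 to 111 and 118 CPM (log2 fold change 0.76 ± 0.20, q = 0.033). The BMP receptor Bmpr1b was nearly silent before treatment, at 0 and 0.109 CPM, and reached 0.551 and 1.11 CPM (ratio 13.7 with a 95% counting interval of 4.35 to 69.2, q = 0.046). The receptors that TGFb itself binds did not pass: Tgfbr1 had 83 and 101 to 76.8 and 86.4 CPM (log2 fold change -0.17 ± 0.39, q = 0.88) and Tgfbr2 161 and 168 to 207 and 218 CPM (log2 fold change 0.37 ± 0.26, q = 0.49).

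Among Smads and their repressors, 2 rose and 0 fell of 20 (4-day fit: 8 higher and 2 lower). Both are feedback inhibitors of the pathway. Smad7, the inhibitory Smad, rose from 38.4 and 32.3 to 91.6 and 94.2 CPM (log2 fold change 1.39 ± 0.39, q = 0.041), and Pmepa1, which sequesters receptor Smads, rose from 709 and 715 to 1439 and 1496 CPM (log2 fold change 1.04 ± 0.28, q = 0.032). The signalling Smad Smad3 had 50.2 and 49.9 to 56.4 and 61.7 CPM (log2 fold change 0.24 ± 0.21, q = 0.60) and did not pass.

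Direct TGFb target genes had a median log2 fold change of 0.90; 4 rose and 0 fell of 20, and the 4-day fit passed 15 higher and 1 lower. The CDK inhibitors Cdkn2b (p15) and Cdkn1a (p21) rose: Cdkn2b (Entrez ID 12579, chr4:89306289-89311032) went from 5.59 and 6.37 to 63.1 and 54 CPM (log2 fold change 3.29 ± 0.24, q = 2.8e-05), and Cdkn1a (Entrez ID 12575, chr17:29090979-29100722) from 69.9 and 65.6 to 312 and 321 CPM (log2 fold change 2.22 ± 0.27, q = 4.7e-04). Ccn2, the matricellular protein also known as connective tissue growth factor, went from 259 and 259 to 715 and 689.6 CPM (log2 fold change 1.44 ± 0.25, q = 0.0035). The early response gene Klf10 went from 18.3 and 25.8 to 40.6 and 52.9 CPM (log2 fold change 1.08 ± 0.27, q = 0.023). Both treated libraries stood above both untreated ones in these 4 genes, but no passing gene among the 1371 had overlap, so this adds no support.

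For the genes above, Tgfb2, Cdkn2b and Cdkn1a passed in all 4 fits that leave out 1 AE library. Ccn2, Fst, Inhba, Pmepa1, Acvr1, Fstl3, Klf10, Smad7, Bmpr1b and Gdf11 passed in 0 to 3 of the 4. For these, q reached from 0.051 (Ccn2, without untreated replicate 1) to 0.30 (Gdf11, without untreated replicate 2). Bmpr1b was under the filter in 1 of the 4.

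In the BMP branch and the Id genes, 3 rose and 2 fell of 15 (4-day fit: 4 higher and 4 lower). Sostdc1, a secreted BMP and Wnt antagonist, was among the largest falls, from 8.32 and 6.87 to 0.254 and 0.128 CPM (log2 fold change -5.27 ± 0.91, q = 0.0054). Id2, an inhibitor of differentiation factors, fell from 337 and 319.9 to 99.3 and 95.4 CPM (log2 fold change -1.75 ± 0.38, q = 0.011). The ligand Bmp2 rose from 2.36 and 2.44 to 9.58 and 11.4 CPM (log2 fold change 2.12 ± 0.51, q = 0.022), and the extracellular modulator Bmper rose by 1.78 (q = 0.0049) on the log2 scale. Ligand and antagonists thus changed in both directions. In this branch, Bmper, Sostdc1, Id2 and Bmp2 passed in 0 to 2 of the 4 fits that leave out 1 AE library. The highest q of each lay between 0.069 (Bmper, without untreated replicate 1) and 0.17 (Bmp2, without untreated replicate 1).

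The CDK inhibitor and Gadd45 list was split: 4 rose and 2 fell of 14 (4-day fit: 5 higher and 6 lower), with a median of 0.08. Besides Cdkn2b and Cdkn1a, the increases were Gadd45a, a stress-induced growth arrest gene, from 7.55 and 8.58 to 67.8 and 69 CPM (log2 fold change 3.08 ± 0.25, q = 3.7e-05), and Cdkn2a, from 3.96 and 2.62 to 20.5 and 18.1 CPM (log2 fold change 2.56 ± 0.62, q = 0.02). Cdkn2a and Cdkn2b are neighbours on chromosome 4. Cdkn2c, which inhibits Cdk4 and Cdk6, fell from 54 and 49.7 to 26.8 and 22.9 CPM (log2 fold change -1.06 ± 0.22, q = 0.011).

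Of the targets of p53, the DNA damage factor, 9 rose and 0 fell of 20 (4-day fit: 15 higher and 0 lower), with a median of 0.95. Mdm2, the ubiquitin ligase that removes p53, went from 79.4 and 82.5 to 251 and 271 CPM (log2 fold change 1.69 ± 0.27, q = 0.0023). The death receptor Tnfrsf10b went from 60.1 and 64.1 to 139 and 145 CPM (log2 fold change 1.20 ± 0.18, q = 0.0017). The DNA polymerase Polk went from 22.3 and 21.5 to 64.8 and 60.9 CPM (log2 fold change 1.52 ± 0.29, q = 0.0062). The cell death gene Pmaip1 went from 0.0909 and 0.291 to 2.04 and 2.3 CPM (log2 fold change 3.41 ± 0.64, q = 0.0055). The list shares Cdkn1a with the TGFb targets. Fits without 1 AE library passed 3 to 5 members. Of the genes of these 2 lists, Gadd45a, Mdm2 and Tnfrsf10b passed in all 4 fits that leave out 1 AE library. Pmaip1, Polk, Cdkn2c and Cdkn2a passed in 0 to 3 of the 4. Their q rose to between 0.071 (Pmaip1, without untreated replicate 1) and 0.19 (Cdkn2a, without untreated replicate 2).

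Proliferation genes fell together. Of 34 S phase genes (replication licensing, polymerases and nucleotide supply), 0 rose and 25 fell, and of 36 G2 and mitosis genes, 0 rose and 26 fell. The medians were -1.36 and -1.20, against the -0.0042 of all genes tested, and the background share of falls was the 4.32% given above. In every one of these 70 genes both treated libraries lay below both untreated ones, beside 5081 of all 13172 genes tested. The 4-day fit passed 32 and 36 as lower. Fits without 1 AE library passed 6 to 10 and 3 to 9 of them, so the size of these counts rests on the number of libraries.

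Uhrf1, which recruits DNA methylation to replicated DNA, fell from 82.5 and 71 to 24.1 and 20.9 CPM (log2 fold change -1.77 ± 0.20, q = 3.1e-04). The replicative helicase subunit Mcm6 fell from 195 and 206 to 61.1 and 62.9 CPM (log2 fold change -1.69 ± 0.24, q = 0.0012). The origin factor Mcm10 fell from 50.3 and 48.3 to 15.4 and 18.2 CPM (log2 fold change -1.55 ± 0.23, q = 0.0016). The licensing factor Cdc6 fell from 36 and 40.1 to 12.4 and 12.1 CPM (log2 fold change -1.64 ± 0.25, q = 0.0018). The DNA ligase Lig1 fell from 116 and 109 to 40.8 and 39.3 CPM (log2 fold change -1.49 ± 0.25, q = 0.003). Like all 1371 passing genes, these 5 had no overlap between treated and untreated libraries.

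In mitosis, the kinases Nek2 and Aurkb both fell. Nek2 went from 54.1 and 56.2 to 21 and 21.9 CPM (log2 fold change -1.36 ± 0.21, q = 0.0018). Aurkb went from 51.7 and 45.3 to 18.7 and 18.5 CPM (log2 fold change -1.38 ± 0.22, q = 0.0025). Birc5, a partner of Aurkb in the chromosomal passenger complex, fell from 218 and 210.4 to 78.6 and 74.3 CPM (log2 fold change -1.49 ± 0.26, q = 0.0036). The phosphatase Cdc25b, which activates Cdk1, fell from 58.7 and 54.9 to 19.2 and 21.1 CPM (log2 fold change -1.50 ± 0.24, q = 0.0024). The spindle checkpoint kinase Bub1b fell from 99 and 96.2 to 42.8 and 42.5 CPM (log2 fold change -1.19 ± 0.23, q = 0.0063). The spread over this list was narrow, from -1.60 to -0.93. The proliferation marker Mki67 had 599.5 and 629.6 to 239 and 251 CPM (log2 fold change -1.33 ± 0.41, q = 0.061). Within both lists, Uhrf1, Mcm6, Mcm10, Cdc6, Lig1, Nek2, Aurkb and Cdc25b passed in all 4 fits that leave out 1 AE library. Birc5 and Bub1b passed in 1 to 3 of the 4. Across those fits the highest q went from 0.054 (Birc5, without TGFb replicate 2) to 0.074 (Bub1b, without TGFb replicate 2).

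Promoter sequence was read for these lists because S phase genes are commonly bound by E2F factors at sites such as TTTCCCGC, and mitosis genes by the DREAM and MuvB complexes at the cell cycle homology region (CHR, TTTGAA), often with CCAAT boxes bound by NF-Y. RefSeq (GRCm38.p6) lists a promoter window of 300 bases (250 before and 50 after the start) for 10391 of the 13172 genes tested. The search covered both strands, and overlapping matches were counted once a gene. TTTGAA occurred in 21 of 30 mitosis genes (70.0%) and 14.3% of all genes with a window, and CCAAT in 76.7% and 43.4%. CCAAT was not particular to the mitosis list. It was also in 19 of 29 S phase genes (65.5%) and 9 of 14 direct TGFb target genes (64.3%). For E2F the letters were TTTCCCGC, TTTCGCGC, TTTGCCGC and TTTGGCGC, found in 12 of 29 S phase genes (41.4%) and 4.75% of all. Over all 439 falling genes with a window the shares were lower than in these lists: 23.9% held TTTGAA, 50.6% CCAAT and 8.66% an E2F match. Of 596 rising genes with a window, 46 (7.72%) held the AP-1 letters TGACTCA or TGAGTCA, against 4.82% of all and 3.6% of the falling ones. The Smad palindrome GTCTAGAC was in only 3 of the 596 (0.503%), against 31 of 10391 (0.298%). Among 14 direct TGFb target genes with a window, 0 held the palindrome and 1 the AP-1 letters. A match is a description of the letters and not a measured binding site.

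The 250 bases before the start follow for the 3 falling S phase genes of smallest q with an E2F match there, in capitals: Uhrf1 at chr17:56304063-56304312 (plus strand), Mcm6 at chr1:128359706-128359955 (minus strand) and Cdc6 at chr11:98907901-98908150 (plus strand). Those of Mcm6 hold 2 TTTGGCGC matches, the first of which overlaps a match on the other strand.
Uhrf1: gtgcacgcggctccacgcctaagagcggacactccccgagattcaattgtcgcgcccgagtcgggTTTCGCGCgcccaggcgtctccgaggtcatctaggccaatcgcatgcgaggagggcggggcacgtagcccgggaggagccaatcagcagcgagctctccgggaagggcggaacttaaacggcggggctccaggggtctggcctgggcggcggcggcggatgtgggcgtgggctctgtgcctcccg
Mcm6: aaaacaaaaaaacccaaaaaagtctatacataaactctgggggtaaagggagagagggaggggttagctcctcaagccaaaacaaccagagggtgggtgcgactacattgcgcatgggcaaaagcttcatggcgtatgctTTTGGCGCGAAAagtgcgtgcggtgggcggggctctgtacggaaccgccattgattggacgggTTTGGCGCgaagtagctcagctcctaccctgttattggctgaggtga
Cdc6: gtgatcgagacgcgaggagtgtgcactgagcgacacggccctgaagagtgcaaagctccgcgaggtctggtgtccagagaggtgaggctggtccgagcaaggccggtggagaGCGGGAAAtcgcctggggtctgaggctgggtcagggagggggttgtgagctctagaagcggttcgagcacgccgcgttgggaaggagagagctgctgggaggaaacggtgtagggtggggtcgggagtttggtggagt

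The next 3 are the falling mitosis genes of smallest q with both TTTGAA and CCAAT in that stretch, on either strand and in capitals: Cdk1 at chr10:69352913-69353162 (minus strand), Ccnb2 at chr9:70421555-70421804 (minus strand) and Ube2c at chr2:164769679-164769928 (plus strand). In Cdk1, the mitotic kinase, a TTTGAA begins 15 bases before the start and CCAAT boxes (read as ATTGG) begin 48, 80 and 208 bases before it. Ccnb2 encodes a mitotic cyclin and has CCAAT boxes at 21, 54 and 87 bases. In Ube2c, the ubiquitin-conjugating enzyme that starts mitotic exit, the CHR letters (read as TTCAAA) begin 29 bases before the start.
Cdk1: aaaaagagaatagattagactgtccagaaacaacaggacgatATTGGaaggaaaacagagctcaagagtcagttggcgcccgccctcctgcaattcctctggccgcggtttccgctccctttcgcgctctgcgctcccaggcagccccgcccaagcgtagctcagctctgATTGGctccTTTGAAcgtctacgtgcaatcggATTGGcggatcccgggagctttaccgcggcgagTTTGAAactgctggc
Ccnb2: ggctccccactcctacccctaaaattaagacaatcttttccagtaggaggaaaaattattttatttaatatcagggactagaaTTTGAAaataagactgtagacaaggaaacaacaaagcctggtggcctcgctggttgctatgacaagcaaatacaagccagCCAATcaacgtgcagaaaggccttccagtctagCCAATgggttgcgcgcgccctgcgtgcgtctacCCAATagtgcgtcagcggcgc
Ube2c: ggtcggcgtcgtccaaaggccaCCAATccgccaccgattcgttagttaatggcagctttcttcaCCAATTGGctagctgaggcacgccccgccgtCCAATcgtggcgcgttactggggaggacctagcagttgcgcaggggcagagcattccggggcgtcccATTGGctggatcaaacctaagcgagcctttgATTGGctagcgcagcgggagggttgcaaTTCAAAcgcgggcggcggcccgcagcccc

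These 3 mitosis genes had similar falls. Cdk1 went from 180.5 and 176 to 82.6 and 78.5 CPM (log2 fold change -1.15 ± 0.23, q = 0.0075). Ccnb2 went from 83.8 and 73.2 to 32.7 and 31.5 CPM (log2 fold change -1.29 ± 0.26, q = 0.0077). Ube2c went from 77.7 and 76.3 to 35.1 and 33.7 CPM (log2 fold change -1.16 ± 0.24, q = 0.0093). Here Ccnb2, Cdk1 and Ube2c passed in 0 to 1 of the 4 fits that leave out 1 AE library. Their highest q ran from 0.088 (Ccnb2, without TGFb replicate 2) to 0.1 (Ube2c, without TGFb replicate 2).

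Of the cyclins, Myc family and G1 drivers, 2 rose and 5 fell of 17 (4-day fit: 2 higher and 8 lower). The falls included E2f8 (38.1 and 38.9 to 11.8 and 12.8 CPM; log2 fold change -1.64 ± 0.29, q = 0.0043) and E2f7 (-1.29, q = 0.013), which repress E2F targets, and the G1/S cyclin Ccne1 (-0.80, q = 0.039). Cyclin D1, Ccnd1, fell from 686 and 674 to 327 and 322 CPM (log2 fold change -1.07 ± 0.30, q = 0.039), whereas cyclin D2, Ccnd2, rose from 5.87 and 9.02 to 33.7 and 36.9 CPM (log2 fold change 2.24 ± 0.41, q = 0.005). Mycn rose from 1.68 and 1.35 to 5.94 and 4.74 CPM (log2 fold change 1.82 ± 0.35, q = 0.0064). The D cyclins, partners of Cdk4 and Cdk6, thus moved in opposite directions. In this list, E2f8, Ccnd2, Mycn, E2f7, Ccnd1 and Ccne1 passed in 0 to 3 of the 4 fits that leave out 1 AE library. For these, q reached from 0.059 (E2f8, without TGFb replicate 1) to 0.28 (Ccne1, without untreated replicate 2).

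**Figure D3:**
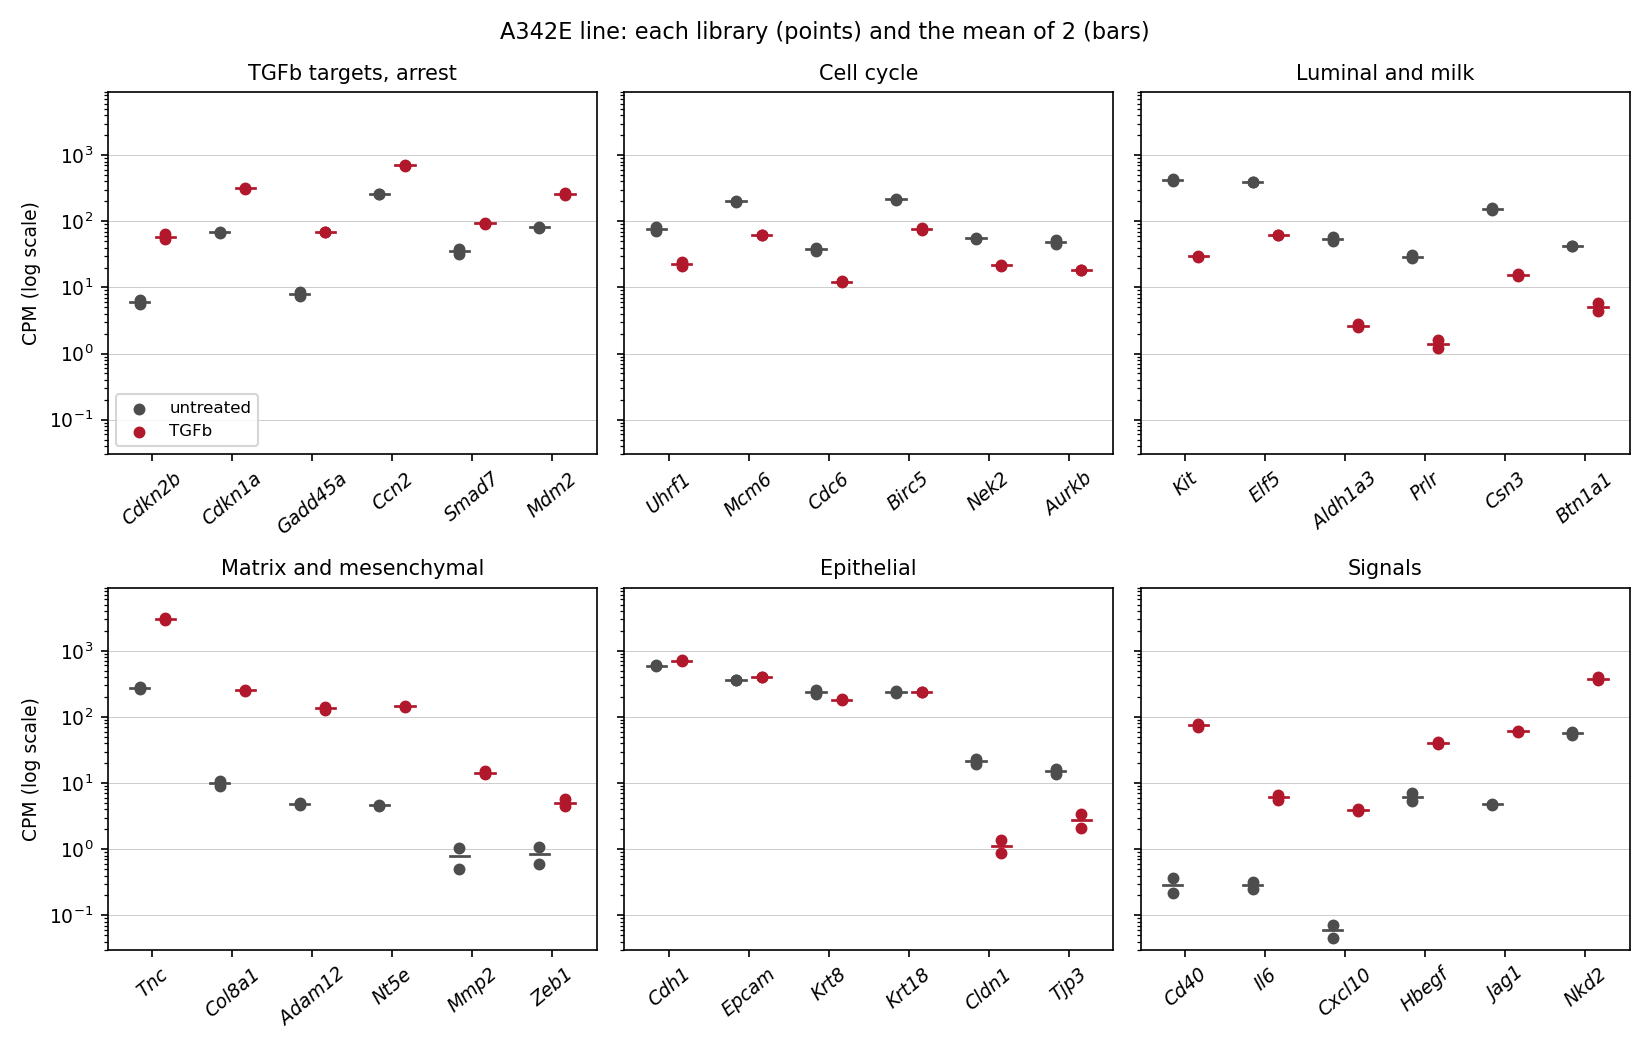
CPM (log scale) of 36 genes in each of the 4 A342E libraries, grey for untreated and red for TGFb, with bars at the mean of 2. The points of a group nearly coincide; the epithelial panel shows Cdh1, Epcam, Krt8 and Krt18 close to their untreated levels beside the falls of Cldn1 and Tjp3.

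The EMT transcription factors rose in part: 3 rose and 0 fell of 15 (4-day fit: 7 higher and 0 lower). Zeb1, a repressor of E-cadherin, was low in untreated cells, at 0.591 and 1.09 CPM, and reached 4.45 and 5.68 CPM (log2 fold change 2.57 ± 0.42, q = 0.0027). Prrx1 and Foxc2, transcription factors of mesenchyme, both rose. Prrx1 went from 2.27 and 3.06 to 6.06 and 8.24 CPM (log2 fold change 1.42 ± 0.31, q = 0.012). Foxc2 went from 0.682 and 0.473 to 1.53 and 1.71 CPM (log2 fold change 1.49 ± 0.35, q = 0.018). On the epithelial side, 1 rose and 3 fell of 17 epithelial transcription and splicing factors (4-day fit: 2 higher and 7 lower), with a median of -0.24. Grhl1 fell from 52.1 and 56.2 to 11.8 and 13.4 CPM (log2 fold change -2.10 ± 0.30, q = 0.0012). Ovol1 fell from 2.96 and 3.46 to 0.806 and 1.24 CPM (log2 fold change -1.65 ± 0.42, q = 0.027). Elf5, the alveolar luminal factor, fell from 390.5 and 397 to 62.4 and 61.3 CPM (log2 fold change -2.67 ± 0.34, q = 6.3e-04). Klf4 went the other way, from 1.96 and 2.91 to 7.08 and 8.66 CPM (log2 fold change 1.69 ± 0.45, q = 0.033). Of these, Grhl1 and Elf5 passed in all 4 fits that leave out 1 AE library. Zeb1, Prrx1, Foxc2, Ovol1 and Klf4 passed in 0 to 3 of the 4. The highest q of each lay between 0.051 (Zeb1, without untreated replicate 1) and 0.26 (Klf4, without untreated replicate 1).

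Junction genes changed in a minority. Of 25 adhesion and tight junction genes, 0 rose and 4 fell (4-day fit: 5 higher and 9 lower). Cldn1, a tight junction claudin, fell from 19.3 and 23.4 to 0.89 and 1.37 CPM (log2 fold change -4.24 ± 0.47, q = 2.9e-04). The tight junction adaptor Tjp3 fell from 16.6 and 13.6 to 3.43 and 2.09 CPM (log2 fold change -2.45 ± 0.47, q = 0.0066). Occludin, Ocln, went from 16.7 and 18.2 to 9.46 and 9.43 CPM (log2 fold change -0.89 ± 0.26, q = 0.049). E-cadherin, Cdh1, had 591 and 607 to 698 and 725 CPM (log2 fold change 0.25 ± 0.17, q = 0.48) and Epcam 366 and 359 to 408 and 398 CPM (log2 fold change 0.15 ± 0.17, q = 0.71). Neither passed. In this list, Cldn1 passed in all 4 fits that leave out 1 AE library. Tjp3 and Ocln passed in 0 to 2 of the 4. Their q rose to between 0.11 (Tjp3, without TGFb replicate 2) and 0.26 (Ocln, without TGFb replicate 2).

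Desmosome genes were mixed: 3 rose and 1 fell of 13 (4-day fit: 4 higher and 3 lower). The desmoglein Dsg3 rose from 0.227 and 0.182 to 10.9 and 13.7 CPM (log2 fold change 5.89 ± 1.02, q = 0.0036). The plakophilin Pkp1 rose from 44.6 and 41.6 to 183 and 198 CPM (log2 fold change 2.14 ± 0.28, q = 7.5e-04). Perp, a desmosome protein induced by p53, rose from 177 and 183 to 320.0 and 323 CPM (log2 fold change 0.84 ± 0.20, q = 0.02), while periplakin, Ppl, fell from 77.4 and 78.2 to 30.1 and 31.8 CPM (log2 fold change -1.33 ± 0.16, q = 3.9e-04). Of 14 keratins, 2 rose and 1 fell (4-day fit: 5 higher and 1 lower). Krt16, a keratin of activated epidermis, rose from 0.546 and 0.364 to 3.99 and 2.86 CPM (log2 fold change 2.92 ± 0.67, q = 0.016). Krt20 rose from 0.0455 and 0 to 0.89 and 0.981 CPM (ratio 46.3 with a 95% counting interval of 7.89 to 1870.2, q = 0.016). Krt23 fell from 2.5 and 2.84 to 0.17 and 0.299 CPM (log2 fold change -3.48 ± 0.59, q = 0.0038). Keratins resemble each other in sequence, so reads of close members may have been split between them. Krt8, a keratin of simple epithelium, had 257 and 221 to 185 and 179 CPM (log2 fold change -0.39 ± 0.68, q = 0.84). For both lists, Pkp1 and Ppl passed in all 4 fits that leave out 1 AE library. Krt23, Dsg3, Krt20, Krt16 and Perp passed in 0 to 3 of the 4. Across those fits the highest q went from 0.059 (Krt23, without TGFb replicate 1) to 0.17 (Perp, without untreated replicate 1).

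Luminal and alveolar genes held several of the deepest falls. In the luminal and progenitor list, 3 rose and 4 fell of 17 (4-day fit: 5 higher and 7 lower). Kit, the receptor that marks luminal progenitors, fell from 409.8 and 434 to 28.6 and 30.2 CPM (log2 fold change -3.84 ± 0.28, q = 5.5e-05). The retinaldehyde dehydrogenase Aldh1a3 fell from 51.1 and 57.4 to 2.5 and 2.77 CPM (log2 fold change -4.36 ± 0.35, q = 3.7e-05). The prolactin receptor Prlr fell from 27.5 and 30.8 to 1.61 and 1.19 CPM (log2 fold change -4.37 ± 0.65, q = 0.0015). The list also holds Itgb3 and Ly6a, which both rose. Itgb3 went from 169 and 177 to 419 and 427 CPM (log2 fold change 1.29 ± 0.28, q = 0.012). Ly6a went from 0.409 and 0.4 to 1.87 and 1.28 CPM (log2 fold change 1.95 ± 0.37, q = 0.0063).

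Of 14 milk and Stat5 axis genes with enough reads, 2 rose and 6 fell (4-day fit: 2 higher and 6 lower), and 7 more of the 21 listed fell under the filter. Kappa-casein, Csn3, fell from 149 and 158 to 14.8 and 15.7 CPM (log2 fold change -3.33 ± 0.30, q = 6.1e-05), and butyrophilin, Btn1a1, which coats milk fat globules, from 41.9 and 42.9 to 5.77 and 4.35 CPM (log2 fold change -3.07 ± 0.24, q = 3.7e-05). The folate receptor Folr1 fell from 32.3 and 31.4 to 1.61 and 1.54 CPM (log2 fold change -4.33 ± 0.58, q = 8.1e-04). The mucin Muc15 fell from 103 and 120.0 to 6.78 and 5.8 CPM (log2 fold change -4.15 ± 0.46, q = 2.7e-04). Osteopontin, Spp1, rose from 536 and 587 to 1341 and 1360.4 CPM (log2 fold change 1.27 ± 0.27, q = 0.01). Treated and untreated libraries did not overlap in any of these genes, which holds for all 1371 passing genes. Among them, Kit, Aldh1a3, Prlr, Csn3, Btn1a1, Folr1 and Muc15 passed in all 4 fits that leave out 1 AE library. Ly6a, Spp1 and Itgb3 passed in 0 to 1 of the 4. Their highest q ran from 0.071 (Ly6a, without untreated replicate 2) to 0.12 (Itgb3, without untreated replicate 1).

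Mesenchymal genes moved upward in part: 9 rose and 0 fell of 21 tested, with a median of 1.45 (4-day fit: 17 higher and 3 lower; 3 to 5 higher without 1 AE library). Nt5e (CD73), a surface enzyme of stromal cells, rose from 4.55 and 4.73 to 142 and 147 CPM (log2 fold change 4.96 ± 0.37, q = 3.5e-05). The gelatinase Mmp2 rose from 0.5 and 1.05 to 13.7 and 15 CPM (log2 fold change 4.18 ± 0.62, q = 0.0015). The receptor tyrosine kinase Axl rose from 7.18 and 8.11 to 34.3 and 36.3 CPM (log2 fold change 2.21 ± 0.33, q = 0.0016). Fibrillin, Fbn1, and Sparc, a collagen-binding matricellular protein, both rose. Fbn1 went from 23 and 26.8 to 92.6 and 113 CPM (log2 fold change 2.04 ± 0.41, q = 0.0078). Sparc went from 782 and 742 to 1921 and 1899 CPM (log2 fold change 1.33 ± 0.23, q = 0.0038). Members long used as EMT markers did not all pass: vimentin, Vim, had 1196 and 1051 to 699 and 686 CPM (log2 fold change -0.70 ± 0.31, q = 0.20), N-cadherin, Cdh2, 18.5 and 18 to 109.8 and 116 CPM (log2 fold change 2.63 ± 0.61, q = 0.017), and fibronectin, Fn1, 2529 and 2521 to 9765 and 11022 CPM (log2 fold change 2.04 ± 0.62, q = 0.058). In this list, Nt5e, Mmp2 and Axl passed in all 4 fits that leave out 1 AE library. Sparc, Fbn1 and Cdh2 passed in 0 to 2 of the 4. For these, q reached from 0.058 (Sparc, without untreated replicate 2) to 0.14 (Cdh2, without untreated replicate 2).

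Collagen genes rose more often than they fell, 10 rose and 3 fell of 24, with a median of 1.44 (4-day fit: 16 higher and 5 lower; 2 to 3 higher without 1 AE library). The network collagens Col8a1 and Col8a2 both rose. Col8a1 went from 9.14 and 10.7 to 244 and 259.8 CPM (log2 fold change 4.66 ± 0.38, q = 3.7e-05). Col8a2 went from 60.5 and 54.1 to 290.1 and 305 CPM (log2 fold change 2.38 ± 0.39, q = 0.0027). Col1a1 and Col1a2, the chains of fibrillar collagen I, both rose. Col1a1 went from 43.7 and 40.6 to 139 and 151 CPM (log2 fold change 1.78 ± 0.52, q = 0.047). Col1a2 went from 47.9 and 50.5 to 189.8 and 211 CPM (log2 fold change 2.02 ± 0.37, q = 0.0048). Col10a1 was nearly silent, at 0.0909 and 0.0727 CPM, and reached 5.39 and 5.25 CPM (log2 fold change 5.95 ± 0.59, q = 5.1e-04). Against them, Col14a1, which binds collagen fibrils, fell from 74.2 and 75.1 to 4.79 and 6.53 CPM (log2 fold change -3.72 ± 0.34, q = 3.4e-04). Col4a1, a basement membrane chain, fell from 920.2 and 805 to 279 and 296 CPM (log2 fold change -1.58 ± 0.28, q = 0.0038).

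Collagen enzymes were mixed, 4 rose and 2 fell of 19 (4-day fit: 10 higher and 2 lower). The crosslinking oxidases Lox and Loxl2 both rose. Lox went from 29 and 35.6 to 197 and 194 CPM (log2 fold change 2.60 ± 0.37, q = 0.0012). Loxl2 went from 3.18 and 4.87 to 24.3 and 27.8 CPM (log2 fold change 2.69 ± 0.52, q = 0.0076), while Loxl4 fell from 43.9 and 39.5 to 17.6 and 18.7 CPM (log2 fold change -1.20 ± 0.26, q = 0.012). The prolyl hydroxylase subunit P4ha3 rose by 2.63 (q = 0.0081) and the prolyl 3-hydroxylase P3h2 fell from 49.3 and 53 to 7.51 and 7.94 CPM (log2 fold change -2.73 ± 0.31, q = 3.1e-04). Of collagens and their enzymes, Col8a1, Col8a2, Col10a1, Col14a1, Lox and P3h2 passed in all 4 fits that leave out 1 AE library. Col4a1, Col1a2, P4ha3, Loxl2, Loxl4 and Col1a1 passed in 0 to 3 of the 4. The highest q of each lay between 0.055 (Col4a1, without TGFb replicate 1) and 0.26 (Col1a1, without untreated replicate 2).

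Matrix glycoproteins and proteoglycans changed in 1 direction only, at the threshold used: 14 rose and 0 fell of 33, with a median of 1.39 (4-day fit: 24 higher and 1 lower; 2 to 7 higher without 1 AE library). Tenascin C, Tnc, rose from 288 and 263 to 2918 and 3176 CPM (log2 fold change 3.47 ± 0.50, q = 0.0014). Thrombospondin 1, Thbs1, rose from 866 and 807 to 5873 and 5607 CPM (log2 fold change 2.78 ± 0.68, q = 0.021). The hyaluronan synthase Has2 and the proteoglycan Bgn both rose. Has2 went from 0.864 and 0.727 to 11 and 13.4 CPM (log2 fold change 3.94 ± 0.60, q = 0.0018). Bgn went from 55.3 and 58.3 to 172 and 203 CPM (log2 fold change 1.72 ± 0.30, q = 0.0061). The laminin list holds chains at the core of basement membrane and also Ntn4, and went mainly the other way: 1 rose and 3 fell of 10 (4-day fit: 1 higher and 4 lower). Lama4 fell from 226 and 243 to 74 and 80.7 CPM (log2 fold change -1.60 ± 0.22, q = 0.0011). Lama3 fell from 55 and 62.8 to 21.2 and 23.9 CPM (log2 fold change -1.39 ± 0.30, q = 0.012). Lamc1 fell from 772 and 743 to 477 and 483 CPM (log2 fold change -0.66 ± 0.19, q = 0.049). The 1 that rose, Ntn4, is a netrin that binds laminin and not a laminin chain. It went from 1.36 and 1.38 to 5.34 and 6.02 CPM (log2 fold change 2.04 ± 0.41, q = 0.0082). Here Tnc, Has2 and Lama4 passed in all 4 fits that leave out 1 AE library. Bgn, Ntn4, Lama3, Thbs1 and Lamc1 passed in 0 to 1 of the 4. Their q rose to between 0.075 (Bgn, without untreated replicate 1) and 0.26 (Lamc1, without TGFb replicate 1).

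The matrix protease and inhibitor list had the highest share of rising members of the 44 pathway lists, 19 of 33 with no fall, and a median of 1.62 (4-day fit: 26 higher and 1 lower; 11 to 15 higher without 1 AE library). Pappa2, which cleaves IGF binding proteins, went from 0 and 0.0727 to 11 and 10.5 CPM (ratio 267 with a 95% counting interval of 73.5 to 2209, q = 5.1e-04). The metalloprotease Adamts16 and the aggrecanase Adamts4 both rose. Adamts16 went from 0.0455 and 0.0364 to 6.15 and 4.52 CPM (ratio 132 with a 95% counting interval of 36.2 to 1097, q = 6.1e-04). Adamts4 went from 6.73 and 5.86 to 76.3 and 71.3 CPM (log2 fold change 3.55 ± 0.47, q = 7.2e-04). The disintegrin Adam12 went from 5.05 and 4.73 to 128 and 140.1 CPM (log2 fold change 4.78 ± 0.59, q = 5.1e-04). The collagenase Mmp13 went from 0 and 0.109 to 2.12 and 2.6 CPM (ratio 38.9 with a 95% counting interval of 13 to 192, q = 2.4e-04). The gelatinase Mmp9 went from 0.136 and 0.109 to 4.58 and 6.23 CPM (log2 fold change 5.42 ± 0.85, q = 0.002). All 6 were at or below 6.73 CPM in untreated cells. In this list, Pappa2, Adamts16, Adamts4, Adam12, Mmp13 and Mmp9 passed in all 4 fits that leave out 1 AE library.

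Of 18 integrin chains, 4 rose and 1 fell (4-day fit: 12 higher and 2 lower). Itgb5, a vitronectin receptor chain, rose from 140.2 and 124 to 469 and 464 CPM (log2 fold change 1.82 ± 0.35, q = 0.0063). Itga9, which binds tenascin C, rose from 1 and 1.31 to 7.29 and 6.61 CPM (log2 fold change 2.58 ± 0.44, q = 0.004). The leukocyte chain Itgb2 rose from 1 and 0.946 to 3.94 and 3.67 CPM (log2 fold change 1.96 ± 0.40, q = 0.0091). Itga8 fell from 502 and 559 to 179 and 185 CPM (log2 fold change -1.54 ± 0.40, q = 0.028). Actin and smooth muscle genes did not pass in any of 23 cases by edgeR at q under 0.05 (2 at an unadjusted p under 0.05; 4-day fit: 4 higher and 3 lower), with a median of 0.05. Smooth muscle actin, Acta2, had 68.6 and 63.7 to 74.3 and 84.5 CPM (log2 fold change 0.26 ± 0.48, q = 0.85), cytoplasmic Actg1 2332 and 2218 to 2586 and 2539 CPM (log2 fold change 0.17 ± 0.29, q = 0.83) and filamin Flna 2249.6 and 2246 to 2031 and 2163 CPM (log2 fold change -0.10 ± 0.38, q = 0.94). Actin genes are near-identical in coding sequence, so their reads are uncertain between copies. Of YAP and TEAD targets, 2 rose and 1 fell of 18 (4-day fit: 10 higher and 2 lower). The shares over all genes tested were 6.09% and 4.32% (4-day fit: 18.7% and 16.3%). The rises were Ccn2 and Axl and the fall was Tead4, from 18 and 21.9 to 8.4 and 9.56 CPM (log2 fold change -1.15 ± 0.33, q = 0.043). Here Itga9, Itgb5, Itgb2, Itga8 and Tead4 passed in 0 to 3 of the 4 fits that leave out 1 AE library. Across those fits the highest q went from 0.072 (Itga9, without untreated replicate 1) to 0.27 (Tead4, without TGFb replicate 1).

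Several inflammatory signals rose from low levels. In the cytokine and Il6 family list, 4 rose and 1 fell of 19 (4-day fit: 8 higher and 2 lower). Il1rl1, the receptor of interleukin 33, rose from 0.455 and 0.327 to 26.8 and 25 CPM (log2 fold change 6.04 ± 0.93, q = 0.0019). Il6 rose from 0.318 and 0.255 to 6.62 and 5.5 CPM (log2 fold change 4.39 ± 0.56, q = 0.0012). The prostaglandin synthase Ptgs2 rose from 12.1 and 13.6 to 75.9 and 86.7 CPM (log2 fold change 2.66 ± 0.56, q = 0.01). The Il6 receptor chain Il6ra fell from 37.3 and 39.9 to 9.41 and 11.8 CPM (log2 fold change -1.87 ± 0.31, q = 0.0031), so ligand and receptor moved in opposite directions. Of 17 chemokines, 4 rose and 1 fell (4-day fit: 6 higher and 4 lower): Cxcl10 went from 0.0455 and 0.0727 to 3.77 and 4.01 CPM (ratio 64.2 with a 95% counting interval of 21.6 to 314, q = 4.6e-04). Cxcl9 went from 0.136 and 0.0727 to 2.71 and 2.82 CPM (log2 fold change 4.69 ± 0.61, q = 0.0019). Ccl7 went from 1.77 and 2.33 to 8.86 and 8.28 CPM (log2 fold change 2.06 ± 0.51, q = 0.033). Ccl2 went from 2.64 and 4.29 to 12.9 and 13.7 CPM (log2 fold change 1.94 ± 0.55, q = 0.044), while the neutrophil chemokine Cxcl1 fell from 5.55 and 4.15 to 2.37 and 1.62 CPM (log2 fold change -1.27 ± 0.33, q = 0.027). Ptprc was at 0 counts in all 4 libraries, and the summed level of the 2 immune markers that passed the filter (Lyz2 and Csf1r) was 1.36 and 1.09 CPM untreated and 3.99 and 3.76 CPM with TGFb.

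Cd40, a TNF receptor family member that signals to NF-kB, had the largest fitted log2 fold change of the passing genes that reach 5 CPM. The fitted value of Pappa2 was 7.89. By the ratio of mean CPM, Pappa2 stood higher (296, against 257 for Cd40), but its untreated group held 2 counts. Cd40 (Entrez ID 21939, chr2:165055614-165071654) went from 0.364 and 0.218 to 78.4 and 71.3 CPM (log2 fold change 8.01 ± 0.76, q = 7.7e-05). In the list of Cd40, 5 rose and 0 fell of 21 (4-day fit: 9 higher and 0 lower). The NF-kB feedback inhibitors Tnfaip3 and Nfkbie both rose. Tnfaip3 went from 11.1 and 12.1 to 35.9 and 37.7 CPM (log2 fold change 1.66 ± 0.36, q = 0.012). Nfkbie went from 2.36 and 2.29 to 8.01 and 6.83 CPM (log2 fold change 1.67 ± 0.38, q = 0.016). The adhesion gene Vcam1 had 0 counts in both untreated libraries and 1.1 and 0.939 CPM with TGFb (at least 16.8-fold higher, q = 0.0011, against a floor of 3 counts over the group), and the TNF receptor Tnfrsf1b rose from 0.773 and 0.655 to 2.67 and 3.07 CPM (log2 fold change 2.01 ± 0.45, q = 0.014). Of 20 interferon and antigen presentation genes, 2 rose and 0 fell (4-day fit: 4 higher and 3 lower). Shares over all genes tested were 6.09% higher and 4.32% lower (4-day fit: 18.7% and 16.3%). The rises were Oasl2, from 0.682 and 0.873 to 11.3 and 11.8 CPM (log2 fold change 3.88 ± 0.31, q = 3.7e-05), and Ifi44, from 0.227 and 0.109 to 1.4 and 1.24 CPM (log2 fold change 2.97 ± 0.51, q = 0.0036). The lectin pathway protease Masp1 was the 1 of 11 complement genes that passed (4-day fit: 2 higher and 0 lower), from 0.864 and 0.618 to 6.02 and 6.96 CPM (log2 fold change 3.13 ± 0.59, q = 0.0055). For these signal genes, Il1rl1, Il6, Cxcl10, Cxcl9, Cd40, Vcam1 and Oasl2 passed in all 4 fits that leave out 1 AE library. Il6ra, Ifi44, Masp1, Ptgs2, Tnfaip3, Nfkbie, Tnfrsf1b, Ccl7, Cxcl1 and Ccl2 passed in 0 to 3 of the 4. Their highest q ran from 0.055 (Il6ra, without TGFb replicate 1) to 0.34 (Ccl2, without untreated replicate 1).

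Ligands of the EGF receptor rose: 4 rose and 0 fell of 13 in that family (4-day fit: 8 higher and 1 lower). Areg went from 0.637 and 0.655 to 8.14 and 8.88 CPM (log2 fold change 3.71 ± 1.05, q = 0.042). Ereg went from 0.227 and 0.364 to 2.16 and 3.5 CPM (log2 fold change 3.22 ± 0.61, q = 0.0059). Hbegf went from 5.27 and 7.02 to 39.5 and 42 CPM (log2 fold change 2.73 ± 0.58, q = 0.011). Tgfa went from 6.91 and 6.55 to 18.7 and 19.9 CPM (log2 fold change 1.52 ± 0.39, q = 0.025). In the FGF, PDGF and VEGF list, 4 rose and 0 fell of 22 (4-day fit: 9 higher and 5 lower). The coreceptors Nrp1 and Nrp2 both rose. Nrp1 went from 15 and 17.5 to 116 and 126 CPM (log2 fold change 2.90 ± 0.46, q = 0.0022). Nrp2 went from 171 and 184 to 465 and 503 CPM (log2 fold change 1.44 ± 0.23, q = 0.0025). The ligand Vegfc went from 3.18 and 3.64 to 10.7 and 10.3 CPM (log2 fold change 1.62 ± 0.35, q = 0.011). The PDGF receptor Pdgfrb went from 11.2 and 10.4 to 36.8 and 41 CPM (log2 fold change 1.84 ± 0.52, q = 0.042). In these families, Nrp1 and Nrp2 passed in all 4 fits that leave out 1 AE library. Ereg, Vegfc, Hbegf, Tgfa, Areg and Pdgfrb passed in 0 to 1 of the 4. For these, q reached from 0.086 (Ereg, without untreated replicate 1) to 0.26 (Pdgfrb, without untreated replicate 2).

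Of IGF genes, 5 rose and 0 fell of 15 (4-day fit: 8 higher and 0 lower). The binding proteins Igfbp3, Igfbp4 and Igfbp7, which hold IGF outside the cell, rose. Igfbp3 went from 176 and 183 to 799 and 804 CPM (log2 fold change 2.16 ± 0.44, q = 0.0081). For Igfbp4 the values were 2 and 2.26 to 16.6 and 15.3 CPM (log2 fold change 2.90 ± 0.45, q = 0.002). For Igfbp7 they were 197 and 202 to 603 and 579 CPM (log2 fold change 1.57 ± 0.20, q = 6.3e-04). The ligand Igf1 rose from 296 and 299.6 to 627 and 570.5 CPM (log2 fold change 1.01 ± 0.26, q = 0.032). In the IGF list, Igfbp4 and Igfbp7 passed in all 4 fits that leave out 1 AE library. Igfbp3 and Igf1 passed in 0 to 2 of the 4. The highest q of each lay between 0.088 (Igfbp3, without untreated replicate 1) and 0.20 (Igf1, without untreated replicate 1).

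Wnt genes, of interest because Pygo2 serves beta-catenin, had medians near 0. Of 26 ligands, receptors and antagonists, 2 rose and 1 fell (4-day fit: 8 higher and 4 lower), with a median of 0.04. Over all genes tested, 6.09% rose and 4.32% fell (4-day fit: 18.7% and 16.3%), so the 2 and 1 are near the background. The ligands Wnt9a and Wnt11 both rose. Wnt9a went from 12.8 and 11.2 to 76.6 and 75 CPM (log2 fold change 2.66 ± 0.68, q = 0.026). Wnt11 went from 0.136 and 0.145 to 1.7 and 1.49 CPM (log2 fold change 3.45 ± 0.87, q = 0.025), and Wnt5b fell from 294 and 271 to 128 and 122 CPM (log2 fold change -1.18 ± 0.21, q = 0.0043). Of 20 Wnt targets and enhanceosome genes, 1 rose and 3 fell (4-day fit: 4 higher and 4 lower), with a median of -0.10. Nkd2, an antagonist of Wnt and a binding partner of TGFa in the cell, rose from 53.8 and 58.7 to 362 and 396 CPM (log2 fold change 2.75 ± 0.35, q = 5.8e-04). The TCF factors Tcf7l1 and Tcf7l2, which carry beta-catenin to DNA, both fell. Tcf7l1 went from 36.3 and 31.3 to 16.7 and 16.3 CPM (log2 fold change -1.03 ± 0.26, q = 0.024). Tcf7l2 went from 72.7 and 72.8 to 38.3 and 37.4 CPM (log2 fold change -0.94 ± 0.23, q = 0.023), and the third fall was Ccnd1, given above. In the Notch list, 2 rose and 1 fell of 14 (4-day fit: 3 higher and 7 lower), with a median of -0.56: the ligand Jag1, a known TGFb-responsive gene, rose from 4.73 and 4.84 to 58.9 and 62.3 CPM (log2 fold change 3.66 ± 0.51, q = 9.6e-04), Notch4 rose from 1.18 and 0.982 to 17.3 and 17.8 CPM (log2 fold change 4.02 ± 0.38, q = 8.3e-05), and the ligand Dll4 fell from 1.23 and 1.27 to 0.212 and 0.299 CPM (log2 fold change -2.27 ± 0.60, q = 0.031). Of these, Nkd2, Jag1 and Notch4 passed in all 4 fits that leave out 1 AE library. Wnt5b, Tcf7l2, Wnt11, Tcf7l1, Wnt9a and Dll4 passed in 0 to 2 of the 4. Their q rose to between 0.064 (Wnt5b, without TGFb replicate 2) and 0.25 (Dll4, without TGFb replicate 1). Dll4 was under the filter in 2 of the 4.

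Axon guidance genes rose in 10 of 40 cases and fell in none (4-day fit: 20 higher and 6 lower), with a median of 0.48. The repellent Slit2 rose from 15.6 and 20.1 to 188 and 217 CPM (log2 fold change 3.50 ± 0.51, q = 0.0014), the semaphorins Sema7a and Sema3d from 3.05 and 3.16 to 26.1 and 28.8 CPM (log2 fold change 3.14 ± 0.49, q = 0.002) and 2.73 and 3.09 to 10.7 and 11.5 CPM (log2 fold change 1.93 ± 0.29, q = 0.0017). The netrin receptor Unc5b rose from 43.4 and 41.6 to 196 and 208 CPM (log2 fold change 2.25 ± 0.44, q = 0.0073). Of 19 channels tested, 3 rose and 1 fell (4-day fit: 7 higher and 3 lower). The calcium channels Cacna1g and Cacna1e both rose. Cacna1g went from 0.0909 and 0.109 to 8.23 and 8.49 CPM (log2 fold change 6.30 ± 0.59, q = 7.1e-05). Cacna1e went from 0.136 and 0.182 to 1.82 and 2.09 CPM (log2 fold change 3.56 ± 0.60, q = 0.0039). The potassium channel Kcnn4 fell from 5.09 and 4.07 to 0.636 and 0.555 CPM (log2 fold change -2.93 ± 0.77, q = 0.03). These 3 channels stood at or below 5.09 CPM in untreated cells. Here Slit2, Sema7a, Sema3d and Cacna1g passed in all 4 fits that leave out 1 AE library. Cacna1e, Unc5b and Kcnn4 passed in 0 to 2 of the 4. Across those fits the highest q went from 0.064 (Cacna1e, without untreated replicate 1) to 0.21 (Kcnn4, without TGFb replicate 2).

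Metabolic, stress, immediate early factor and housekeeping lists are given next, each with its counts from the fit over all libraries. That fit passed 6.09% of all genes as higher and 4.32% as lower (4-day fit: 18.7% and 16.3%). Of 27 lipid synthesis genes, 3 rose and 0 fell (4-day fit: 13 higher and 2 lower). Of 24 glycolysis and hypoxia genes, 1 rose and 1 fell (4-day fit: 3 higher and 3 lower): the lactate exporter Slc16a3 rose from 1.27 and 1.45 to 7.17 and 5.93 CPM (log2 fold change 2.26 ± 0.60, q = 0.039) and the phosphofructokinase Pfkp fell from 73.9 and 71.3 to 34.1 and 32.2 CPM (log2 fold change -1.13 ± 0.28, q = 0.024). In the unfolded protein and amino acid stress list, 0 rose and 1 fell of 22 (4-day fit: 6 higher and 6 lower), the serine synthesis enzyme Psat1, from 381 and 411 to 183 and 186 CPM (log2 fold change -1.10 ± 0.21, q = 0.0054). Of AP-1 and immediate early factors, 3 rose and 2 fell of 24 (4-day fit: 10 higher and 3 lower). Fosl1 and Fosl2, AP-1 subunits, both rose. Fosl1 went from 0.364 and 0.655 to 2.84 and 2.77 CPM (log2 fold change 2.43 ± 0.65, q = 0.033). Fosl2 went from 65 and 88.8 to 217 and 274 CPM (log2 fold change 1.67 ± 0.46, q = 0.037). Spry1, an inhibitor of receptor tyrosine kinases, went from 10.5 and 7.82 to 27.1 and 23.4 CPM (log2 fold change 1.46 ± 0.36, q = 0.021). Etv5, a transcription factor induced by FGF signalling, fell from 83.5 and 86.2 to 25.4 and 23.6 CPM (log2 fold change -1.79 ± 0.21, q = 4.6e-04), and the ERK phosphatase Dusp6 from 74.7 and 58.9 to 43.6 and 30.6 CPM (log2 fold change -0.85 ± 0.21, q = 0.025). No ribosomal protein gene of 28 passed by edgeR (0 at an unadjusted p under 0.05, and in the 4-day fit 0 higher and 3 lower), and their median was -0.25. In 25 of them both treated libraries lay below both untreated ones, beside 5081 of all 13172 genes tested. Processed copies of these genes can take some of their reads. Of the genes named here, Etv5 passed in all 4 fits that leave out 1 AE library. Psat1, Pfkp, Spry1, Slc16a3, Fosl1, Fosl2 and Dusp6 passed in 0 to 1 of the 4. Their highest q ran from 0.067 (Psat1, without TGFb replicate 1) to 0.29 (Dusp6, without TGFb replicate 2).

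Markers of other cell types are given with the matrix and mesenchymal lists, whose members fibroblasts also express. Of 6 fibroblast markers tested, 4 rose: Col1a1, Col1a2, Pdgfrb and Dcn, a small proteoglycan, which went from 0 and 0.0364 to 1.7 and 2.3 CPM (ratio 98.9 with a 95% counting interval of 17.3 to 3949, q = 0.016). The receptor Pdgfra stood lower in both treated libraries, with 161 and 151 to 84.6 and 83.5 CPM (log2 fold change -0.89 ± 0.29, q = 0.072). It did not pass, but was the 1 marker lower in the 4-day fit, beside 4 higher. Thy1, the sixth, did not pass in either fit. The 6 summed to 265 and 254 CPM untreated and 454 and 490 CPM with TGFb, with Lum at 0 counts in both untreated libraries and 2 in each treated one. The part of such cells in the result was not tested. The 7 basal or myoepithelial markers, none of which passed, summed to 1048 and 1016 CPM untreated and 866 and 849 CPM with TGFb. Most of these sums was Oxtr, the oxytocin receptor, with 889.7 and 883 to 686 and 665 CPM. The other 6 summed to 158 and 133 CPM untreated and 180 and 184 CPM with TGFb, and the list had a median of 0.50 (4-day fit: 1 higher and 2 lower). Krt14, with 71.4 and 53.5 to 91 and 85.4 CPM, and Acta2 made up most of the sum of these 6. Another 2 keratins of the list held only 2 and 3 counts over the untreated group, and 7 and 11 with TGFb. The endothelial markers above the filter summed to at most 0.41 CPM in any AE library. The adipocyte marker Fabp4 had 0.909 and 1.27 to 2.08 and 2.26 CPM (log2 fold change 0.98 ± 0.48, q = 0.26), whereas Lep, under the filter, had 16 and 9 counts untreated and 1 and 2 with TGFb. Within the fibroblast list, Col1a2, Dcn, Col1a1 and Pdgfrb passed in 0 to 2 of the 4 fits that leave out 1 AE library. For these, q reached from 0.065 (Col1a2, without untreated replicate 1) to 0.26 (Pdgfrb, without untreated replicate 2).

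The largest changes outside these lists, among genes that reach 5 CPM, had varied functions. Dio2, which activates thyroid hormone, rose from 2.5 and 3.71 to 157 and 172 CPM (log2 fold change 5.72 ± 1.02, q = 0.0041). The polysialic acid synthase St8sia2 rose from 0.318 and 0.145 to 15.8 and 18.9 CPM (log2 fold change 6.23 ± 0.97, q = 0.0034). The cathepsin Ctsw rose from 0.909 and 0.436 to 38.6 and 42.8 CPM (log2 fold change 5.93 ± 0.68, q = 3.4e-04). The diacylglycerol kinase Dgkk rose from 1.14 and 1.42 to 47.2 and 52.7 CPM (log2 fold change 5.28 ± 0.83, q = 0.002). The autophagy gene Atg9b rose from 0.591 and 0.8 to 29.1 and 31.1 CPM (log2 fold change 5.41 ± 0.68, q = 6.0e-04). Trophinin, Tro, rose from 0.182 and 0.218 to 9.75 and 9.47 CPM (log2 fold change 5.54 ± 0.57, q = 1.6e-04). Serpina3h, of a serpin family whose close copies may share reads, rose from 0.0909 and 0.473 to 13.5 and 13.5 CPM (log2 fold change 5.49 ± 0.55, q = 1.4e-04). Of these rises, Ctsw, Dgkk, Atg9b and Serpina3h passed in all 4 fits that leave out 1 AE library. St8sia2 and Dio2 passed in 2 to 3 of the 4. The highest q of each lay between 0.056 (St8sia2, without untreated replicate 2) and 0.069 (Dio2, without untreated replicate 1). Tro was under the filter in 2 of the 4 and passed in the other 2, with q up to 0.0094.

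Among the largest falls outside the lists, the actin-binding coronin Coro2a (Entrez ID 107684, chr4:46536937-46601929) went from 187 and 184 to 4.83 and 5.38 CPM (log2 fold change -5.18 ± 0.46, q = 5.7e-05). The lipase gene Lipk went from 21.6 and 22.5 to 0.806 and 0.555 CPM (log2 fold change -5.01 ± 0.43, q = 4.9e-05). The metalloreductase Steap4 fell from 205 and 188 to 10.2 and 8.36 CPM (log2 fold change -4.40 ± 0.57, q = 6.3e-04). The rhophilin gene Rhpn2 fell from 18.6 and 27.7 to 1.14 and 1.15 CPM (log2 fold change -4.33 ± 0.37, q = 4.4e-05). Trim14 fell from 6.59 and 6.8 to 0.424 and 0.213 CPM (log2 fold change -4.37 ± 0.60, q = 9.5e-04). The secreted Wfdc18 fell from 383 and 384 to 22.7 and 19.7 CPM (log2 fold change -4.18 ± 0.29, q = 2.8e-05). The Ras-like Rasl12 fell from 24.4 and 24.3 to 1.99 and 1.66 CPM (log2 fold change -3.73 ± 0.30, q = 5.5e-05). Of these, Coro2a, Lipk, Steap4, Rhpn2, Trim14, Wfdc18 and Rasl12 passed in all 4 fits that leave out 1 AE library.

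The response was then set against that of the WT line with the interaction term of the same model, the difference between the 2 log2 fold changes (AE minus WT). It passed for 1163 genes, 8.83% of those tested, 664 higher in AE and 499 lower. Of the 1371 genes that TGFb changed in AE, 458 also passed this test. Among the risers, 151 had a higher response in AE than in WT and 59 a lower one. Among the fallers, 170 fell less than in WT and 78 had a lower response in AE than in WT. Both lines' responses are compared over separate control libraries. The 78 genes that passed in both lines in opposite directions all passed the difference. This was nearly fixed in advance, because changes of opposite sign add up in the difference, so it adds no support.

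The fall of proliferation genes was smaller in AE than in WT. For all 36 G2 and mitosis genes the interaction passed in that direction, and for 21 of 34 S phase genes, against 8.83% of all genes in either direction. With 1 of the 8 libraries of the 4-day experiment left out, 33 to 36 mitosis genes and 13 to 16 S phase genes passed, the 13 without untreated AE replicate 1 or WT TGFb replicate 2. The median log2 fold change of the mitosis list was -1.20 in AE and -4.14 in WT, and that of the S phase list -1.36 and -2.91. Aurkb changed by -1.38 in AE and -4.65 in WT (difference 3.26 ± 0.33, q = 1.3e-04), and Cdc6 by -1.64 and -4.68 (difference 3.04 ± 0.36, q = 3.5e-04). In absolute levels, Aurkb went in WT from 68.3 and 73.3 to 2.9 and 2.74 CPM, beside 51.7 and 45.3 to 18.7 and 18.5 CPM in AE. The arrest genes Cdkn2b and Gadd45a changed by 3.29 and 3.08 in AE and by 3.69 and 3.22 in WT, with interactions of -0.40 ± 0.31, q = 0.58 for Cdkn2b and -0.14 ± 0.32, q = 0.91 for Gadd45a, neither of which passed.

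**Figure D4:**
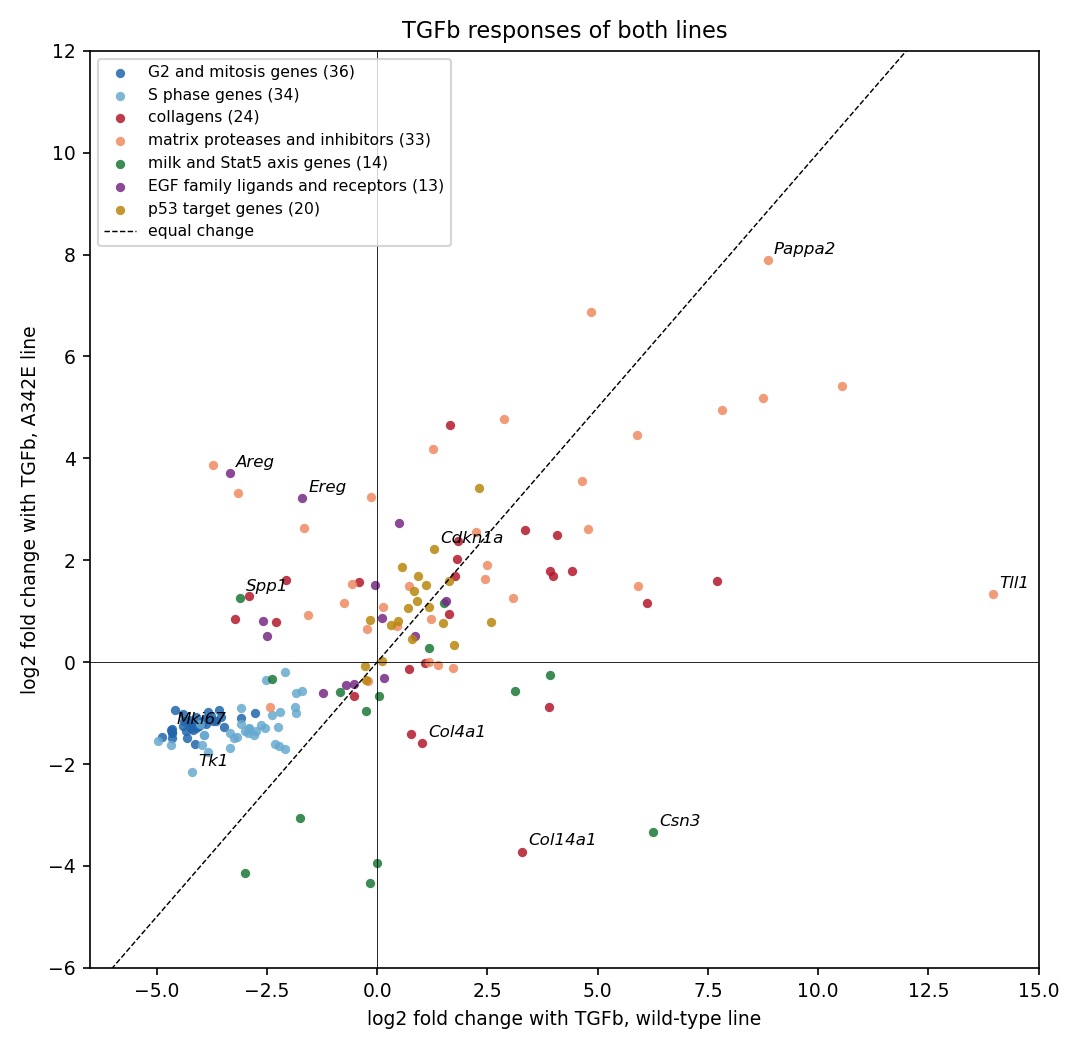
Log2 fold change with TGFb in the wild-type line (x) and the A342E line (y) for members of 7 gene lists; on the dashed line both changes are equal. The S phase and mitosis genes lie above the line, with smaller falls in A342E, and values of WT far to the right, as for Tll1 and Csn3, come from a WT group at or near 0 counts and depend on the prior count of the fit.

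The responses of mesenchymal genes and secreted signals also differed between the lines, which does not mean that levels moved apart. Levels drew together for some: mean Fst went from 10.9 to 36.4 CPM in AE and from 151 to 37.8 CPM in WT. For others they moved apart: mean Igfbp3 went from 179 to 802 CPM in AE and from 12.4 to 3.50 CPM in WT. Vim changed by -0.70 in AE and 4.90 in WT (difference -5.60 ± 0.46, q = 3.8e-05), where it went from 22.9 and 20.5 to 608 and 686 CPM beside 1196 and 1051 to 699 and 686 CPM in AE: untreated AE cells already stood above treated WT cells. Osteopontin, Spp1, changed by 1.27 in AE and -3.11 in WT (difference 4.37 ± 0.39, q = 6.5e-05). The IGF binding proteins Igfbp3 and Igfbp4 had differences of 3.99 ± 0.63, q = 0.0019 and 4.84 ± 0.62, q = 5.8e-04, with WT changes of -1.82 and -1.94, whereas Igfbp7 changed less in AE (1.57) than in WT (4.61; difference -3.05 ± 0.29, q = 8.4e-05). For the antagonist Fst the changes were 1.73 and -2.00 (difference 3.73 ± 0.45, q = 4.0e-04), and for the receptor Axl 2.21 and -1.47 (difference 3.68 ± 0.46, q = 4.7e-04). Areg and Ereg changed by 3.71 and 3.22 in AE and by -3.34 and -1.69 in WT (differences 7.05 ± 1.37, q = 0.0069 and 4.91 ± 1.01, q = 0.0092). Ccn2 rose less in AE than it changed in WT, 1.44 against 4.66 (difference -3.22 ± 0.35, q = 2.2e-04). In the basement membrane, Col4a1 and Lama4 changed by -1.58 and -1.60 in AE and by 1.02 and 0.50 in WT (differences -2.60 ± 0.40, q = 0.0017 and -2.10 ± 0.34, q = 0.002). Of the differences in this paragraph, that of Ereg was the only one lost when 1 of the 8 libraries was left out (q = 0.121 without untreated WT replicate 1).

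Several of the largest differences rested on a group near 0 counts, so levels are given here and not the size of the difference. That group was in WT for most, in untreated AE cells for Dsg3, and in both for Hhip. Csn3 had 0.0382 and 0 CPM in untreated and 2.02 and 1.98 CPM in treated WT cells, beside the fall from 149 and 158 to 14.8 and 15.7 CPM in AE (interaction q = 2.9e-05). Igf1 was at 0 counts in both untreated WT libraries and reached 59.5 and 42.8 CPM with TGFb, while AE cells had 296 and 299.6 CPM before any treatment (q = 2.9e-05). Tll1, a protease of procollagen, was likewise at 0 in untreated WT and 91.5 and 77.7 CPM in treated WT, and in AE had 8.41 and 9.49 to 21.7 and 23.3 CPM (log2 fold change 1.33 ± 0.42, q = 0.072; interaction q = 6.8e-05). Acta2 went from 0 counts to 3.44 and 3.86 CPM in WT (q = 0.0037), still below its level in either AE group. Krt79, a keratin of hair follicle ducts, went from 11.4 and 9.99 CPM to 0 counts in WT and had 3.55 and 3.96 to 6.28 and 7.89 CPM in AE (log2 fold change 0.91 ± 0.34, q = 0.13; interaction q = 3.7e-05). The hedgehog-binding Hhip went from 34.6 and 32.7 to 0.344 and 0.18 CPM in WT and from 0.227 and 0.182 to 3.48 and 4.44 CPM in AE (log2 fold change 4.25 ± 0.64, q = 0.0017; interaction q = 3.7e-05), and Dsg3 from 64.3 and 67 to 2.85 and 2.33 CPM in WT beside its rise in AE (q = 4.6e-04). Kit, Sostdc1 and Col14a1, which fell in AE, were at 0 or 1 count in each WT library, so no response of theirs could be seen there. The rise of Hhip in AE passed in all 4 fits that leave out 1 AE library.

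Pygo2 itself (Entrez ID 68911, chr3:89430114-89435131) was transcribed in all libraries. It had 52.8 and 46.3 to 53.8 and 51.6 CPM in AE cells (log2 fold change 0.09 ± 0.16, q = 0.85) and 61.7 and 58.9 and 62.1 and 67.7 CPM in untreated and treated WT cells. The point mutation does not remove the transcript and gene-level counts do not show it, so this gene does not check the genotype labels.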

How the data were processed

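Poly(A) RNA of 16 samples of mouse mammary tumour lines was sequenced as stranded single reads, per the labels' protocols. STAR and the mm10 build are named in the submitters' processing notes; how reads were counted (tool, strand setting, annotation) is not given in the sources used here, so overlapping and antisense genes may share reads. The authors deposited 1 table of 19665 Entrez gene IDs by 16 columns, whose name speaks of CPM but which holds whole-number counts per gene. All 16 columns matched sample titles, and 0 were left unused. Names and coordinates come from NCBI's GRCm38.p6 gene table (19613 IDs, 13143 of the 13172 tested). Mitochondrially encoded genes and a few other genes are not reported here.

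CPM and tests were computed from the counts with edgeR 4.0.16 in R 4.3.3: TMM scaling, genes at 1 CPM or more in 2 or more libraries, 1 mean per group over 16 libraries (residual df 8, prior df 4.05, common BCV 0.26), the quasi-likelihood F test and Benjamini-Hochberg adjustment over all genes, threshold 0.05. The filter's CPM uses total counts; the printed CPM and summed levels use totals multiplied by the TMM factors (1.05 in both untreated AE libraries, 0.987 and 0.973 in the treated ones). The SE is the log2 fold change divided by the square root of F. A group with 0 counts was set to a floor of 3 counts over the group, and a group of 1 to 3 counts gives a ratio with a 95% interval that covers counting error only; with such genes at these values the collagen list's median was 1.45 and no other pathway list's median moved. Replicates differed by more than sampling noise (chi-square per degree of freedom 9.86 and 4.96 in the AE groups), so no library was merged. Replicate numbers come from the titles. The correlation of same-numbered deviations was 0.38 in AE and 0.87 in WT, but with 2 pairs a line it does not establish pairing. Scripts were tested on simulated data. Alternatives used DESeq2 1.42.0, limma 3.58.1, other scalings, filters, samples and blocks, and a GC content and length correction added after seeing the data (GENCODE M21; 99.3% of genes had values).

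The 50 gene lists and the naming rule were chosen with earlier results of these data known. The rule took Pygo2, the 15 largest and 15 smallest passing log2 fold changes in AE without overlap that average 5 CPM or more in a group, up to 5 passing members a list by q (or up to 2 abundant members where fewer than 2 passed), and the 8 largest differences between the lines in each direction; fewer are named for length. Smad3, Tgfb1, Tgfb3, Tgfbr1, Tgfbr2, Mki67, Vim, Cdh2, Fn1, Krt8, Krt18, Krt19, Thbs1, Pdgfra, Thy1 and Lep fall outside it and were chosen after their values were seen, as were Cdk1, Ccnb2 and Ube2c, shown for their promoters.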

Additional observations from a re-analysis of the deposited data

Results flagged for a closer look

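The TGFb response differed between the lines, by the interaction term of edgeR's quasi-likelihood test with Benjamini-Hochberg adjustment, for 1163 genes, and 81 genes named in the report are among them. Values in brackets are the interaction on the log2 scale, AE response minus WT response, and q ran from 2.9e-05 to 0.047. Higher or lower in AE refers below to this response and not to the level. A lower response can go with a higher level, as for Vim above. Each rests on 2 libraries a group and 1 line a genotype. Leaving out each of the 8 libraries of the 4-day experiment in turn, 65 of the 81 passed every time. The others were lost in at least 1 fit, with a highest q from 0.0501 (Pdgfra, without WT untreated replicate 2) and 0.0521 (Mcm6, without WT TGFb replicate 2, and Lama3, without AE TGFb replicate 1) to 0.19 (Perp, without WT TGFb replicate 2): besides these, Btn1a1, Ccne1, Col14a1, Ctsw, Cxcl1, Dll4, Epcam, Ereg, Grhl1, Krt16, Loxl4 and Trim14.

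Proliferation genes had higher responses in AE, where they fell less: Uhrf1 (2.06), Mcm6 (1.65), Mcm10 (3.42), Cdc6 (3.04), Lig1 (1.76), Nek2 (2.97), Aurkb (3.26), Birc5 (2.81), Cdc25b (3.15), Bub1b (2.78), Cdk1 (2.50), Ccnb2 (2.81), Ube2c (2.55), Mki67 (3.35), E2f7 (2.80), E2f8 (3.43), Ccne1 (1.27) and Cdkn2c (3.52). Epithelial genes with higher responses in AE were Epcam (0.89), Grhl1 (1.94), Ovol1 (5.53), Klf4 (3.44), Dsg3 (10.55), Pkp1 (3.03), Perp (1.01), Ppl (2.68), Krt16 (4.20), Krt79 (11.88) and Ly6a (2.42). Signals and their modulators with higher responses in AE were Areg (7.05), Ereg (4.91), Fst (3.73), Igfbp3 (3.99), Igfbp4 (4.84), Il1rl1 (7.58), Cxcl10 (8.07), Cxcl1 (2.13), Axl (3.68), Nkd2 (3.61), Slit2 (3.41), Hhip (11.24), Spp1 (4.37) and Oasl2 (2.53). The rest of this direction were Klf10 (2.10), Prrx1 (5.03), Fosl1 (5.51), Nt5e (3.37), Col8a1 (3.01), Loxl4 (1.47), Serpina3h (3.23), Ctsw (3.80), Atg9b (4.60) and Dio2 (11.14).

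Lower responses in AE were found for matrix and mesenchymal genes, Ccn2 (-3.22), Vim (-5.60), Fbn1 (-4.02), Acta2 (-9.16), Tll1 (-12.62), Col4a1 (-2.60), Col14a1 (-7.01), Lama3 (-2.06), Lama4 (-2.10), Itgb3 (-3.49) and Pdgfra (-2.04). Luminal, milk and junction genes with lower responses were Aldh1a3 (-3.20), Csn3 (-9.57), Btn1a1 (-1.32), Wfdc18 (-5.67) and Cldn1 (-3.37). The remainder were Tgfb2 (-2.00), Igf1 (-12.22), Igfbp7 (-3.05), Masp1 (-8.60), Dll4 (-5.13), Wnt5b (-3.89), Tcf7l1 (-1.86), Tcf7l2 (-1.72), Ccnd2 (-3.08), Etv5 (-1.89), Coro2a (-5.66) and Trim14 (-3.21). Where a WT group had 3 counts or fewer (Krt79, Ovol1, Dio2, Acta2, Tll1, Col14a1, Csn3, Igf1, Masp1 and Dll4) or the untreated AE group did (Cxcl10), the fitted size depends on the prior count and is no measured fold.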

How the results depend on the processing

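The number of genes changed by TGFb in AE, 1371, ranged from 1135 to 1859 under other scalings, other filters, no intensity trend, DESeq2 and limma. It was 295 with a test against a 2-fold change, 4517 with the 4-day libraries only, 6944 with the 4 AE libraries only, and 3106 with the GC content and length correction, added after seeing the data. Without 1 AE library it was 352 to 459. The line difference, 1163 genes, ranged from 1044 to 1652 under the first group of settings and was 562, 3890 and 2548 with the fold test, the 4-day libraries and the GC correction, and 637 to 717 without 1 library. A replicate block within each line and experiment gave 3213 and 2583 genes, and a replicate block common to all libraries 1329 and 1143. The 4-day fit leaves out the 3-day libraries, which vary more between replicates; the cause of the other shifts was not tested. Total-count scaling moved the median log2 fold change of all genes to -0.106 and the split of calls to 705 higher and 671 lower (51.2% higher, against 58.5%). The split was 75.2% higher with the fold test, 49.8% with the 4 AE libraries and 49.1% with the GC correction. Under that scaling the medians of the actin, CDK inhibitor, desmosome and Wnt ligand lists, all near 0, change sign. Across genes, which are not independent replicates, the AE log2 fold change had a rank correlation of -0.118 with GC content and 0.161 with length, and the ratio of the untreated replicates one of 0.471 with GC content. Of the named genes, the nonsignificant value of Pygo2 reversed, to -0.014 with total-count scaling and over a range of -0.0042 to 0.186 without 1 AE library. Depth limits genes of a few counts, whose sizes depend on the prior count of the fit.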

Other observations

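Of the genes that passed in AE, 779 of the 802 risers and 553 of the 569 fallers are annotated as protein coding, and 3 passing IDs have no name in the gene table. In addition to the genes that passed in the fit over all libraries, 1630 passed as higher and 1537 as lower only when the 3-day libraries were left out.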
